A study of Homo sapiens with 4 samples.

Results

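MAP2K2, MKNK2, GNA11 and GADD45B are 4 signalling genes on the short arm of chromosome 19, taken from a ribosome profiling count table of A375 cells. They were chosen by gene name and place, as the rows of these genes between 1.2 and 4.5 Mb, and they are 4 of the 78724 gene identifiers in the table. All 4 held at least 20 reads over the libraries and all 4 could be tested. A375 is an established human melanoma line that belongs here to a study of tumours lacking ASS1, an enzyme cells need to make arginine from citrulline. The groups were A375 cells kept for 48 h in arginine-free medium (labelled –R) and A375 cells kept for 48 h in control medium (labelled CTRL), with 2 libraries each. The arginine-free medium was rebuilt from an amino acid-free RPMI base with glucose, pyruvate and the other amino acids, while the line was grown in DMEM with serum. The base of the control medium was not stated. The values count ribosome-protected RNA fragments (footprints), which follow both how much of an mRNA is present and how heavily it is translated. The deposited table used here holds footprint libraries alone, so the amount of an mRNA and its translation cannot be told apart.

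MAP2K2 encodes MEK2, a kinase that together with its close relative MEK1 is switched on by RAF kinases and in turn switches on the ERK kinases. This pathway drives growth in melanomas with mutant BRAF, of which A375 is one. MKNK2 encodes MNK2, a kinase that ERK and p38 activate and that phosphorylates the cap-binding translation factor eIF4E while bound to eIF4G. GNA11 encodes G alpha 11, a subunit of the Gq class that passes signals from receptors to phospholipase C beta and that is a frequent mutation target in melanoma of the eye. GADD45B encodes a small stress-induced protein that binds and activates the kinase MAP3K4 upstream of p38 and JNK.

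Total counts were 234766 and 192006 in the arginine-free libraries and 105004 and 217989 in the control libraries. These totals are small for the whole genome, and a count of 0 allows up to 3 reads, or 12.8 to 28.6 CPM of all rows (CPM, counts scaled to a fixed library total). The rows carry GRCh38 coordinates, but the older build GRCh37 is named in the processing notes, and the reads in a row may then come from another place than its gene. In the chromosome 19 window 14.0% of 100 protein-coding rows were at 0, against 72.1% of 18190 nuclear protein-coding rows outside it. Rows in the window are therefore read as their genes here, and rows outside it are not. Even there, a small offset between the builds could cost a row some of the reads that belong to it. The check of the cell line against melanoma genes was limited for the same reason. Of 9 marker rows matched, 5 were at 0, among them MITF, PMEL and SOX10. TYRP1 held 1 and 0 reads in arginine-free medium and 16 and 25 in control medium, and MLANA held 0 and 2 in arginine-free medium and 6 and 10 in control medium. AXL went the other way, at 14 and 7 reads in arginine-free medium and 3 and 2 in control medium, and S100B held 2 reads, both in control medium. These markers lie outside the window, so their reads need not come from the genes named. Of 9 matched marker rows of leukocytes, stroma, epithelium, liver and red cells, 7 were at 0, and the others were KRT14 with 10 reads and PECAM1 with 1. Mitochondrial rows took 18.2% and 24.6% of the arginine-free libraries and 16.5% and 26.2% of the control libraries. The largest single row took 20.2% of control replicate 2, and the largest row of any other library took at most 10.3%.

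Footprints on MAP2K2 fell in arginine-free medium, and those on MKNK2, GNA11 and GADD45B did not pass the test. MAP2K2 was 1.87-fold lower. The fitted changes of the other 3 genes were all positive, from 0.34 to 1.00 on the log2 scale. Rows were tested with edgeR's quasi-likelihood test over all 2526 tested rows and called at a Benjamini-Hochberg adjusted p under 0.05. At that threshold 16.9% of all tested rows were lower and 16.0% were higher. In the window 17.9% of 56 rows were lower and 19.6% higher. The 1 lower call among 4 genes is thus close to the rate in the table. The labels do not say whether replicates came from separate cultures, and the p-values therefore cover the spread between libraries, possibly a technical one.

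**Figure D1:**
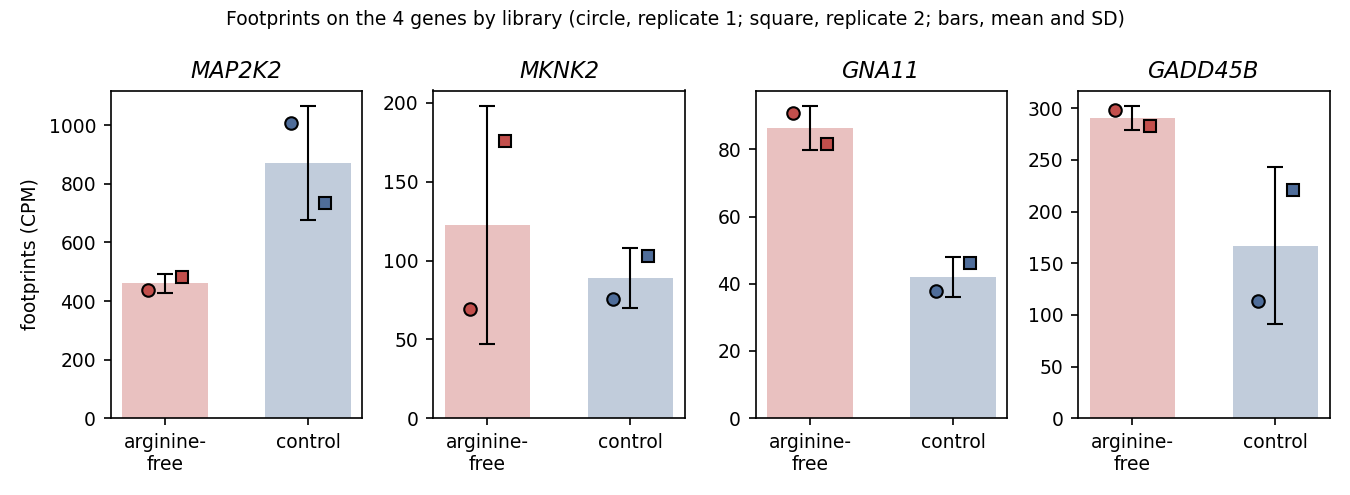
Footprints in CPM (vertical axis, from 0, with its own range for each gene) in arginine-free and control medium. Points are libraries, bars are means and error bars are SD (n = 2 each). Both arginine-free points lie under both control points for MAP2K2 and above them for GNA11 and GADD45B, and the groups overlap for MKNK2.

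MAP2K2, the MEK2 kinase gene (ENSG00000126934.15, GRCh38, chr19:4090321-4124122, minus strand), has 11 exons with 1727 bases in the table. Its row held 101 and 77 reads in the arginine-free libraries and 107 and 143 reads in the control libraries. After scaling for library size (the tested total and a TMM factor), these were 437 and 484 CPM in arginine-free medium, against 1008 and 733 CPM in control medium. Both arginine-free libraries were lower than both control libraries, and the control libraries differed from each other more than the arginine-free ones did. The means were 460.5 ± 32.7 CPM in arginine-free medium and 871 ± 194.5 CPM in control medium (SD, n = 2 each). The log2 fold change was -0.91 (SE 0.23, 95% interval -1.40 to -0.41, edgeR adjusted p = 0.00842). The ratio of the groups' scaled reads was 0.55, with an exact 95% counting interval from 0.451 to 0.669.

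The direction for MAP2K2 was the same under all 11 alternatives, but the call rests on control replicate 1 and on the tool. Without that library the log2 fold change was -0.67 (edgeR adjusted p = 0.165), and with DESeq2 it was -0.82 (DESeq2 adjusted p = 0.143). Over the alternatives the change ran from -1.14 to -0.67.

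GADD45B, the stress-induced activator of p38 and JNK signalling (ENSG00000099860.10, GRCh38, chr19:2476127-2478805, plus strand), has 4 exons with 2104 bases. The row held 69 and 45 reads in the arginine-free libraries, against 12 and 43 reads in the control libraries. On the CPM scale these were 299 and 283 in arginine-free medium and 113 and 220.5 in control medium. The groups did not overlap, and the control libraries lay further apart than control replicate 2 lay from either arginine-free library. The means were 291 ± 11.4 CPM in arginine-free medium and 167 ± 76.0 CPM in control medium (SD, n = 2 each). The log2 fold change was 0.73 (SE 0.33, 95% interval 0.03 to 1.43), and it did not pass (edgeR adjusted p = 0.102). The value turned on control replicate 1, the shallowest library. Without that library the change was 0.40 (edgeR adjusted p = 0.516). Without control replicate 2 it was 1.38 and passed (edgeR adjusted p = 0.0331).

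GNA11, the G alpha subunit gene (ENSG00000088256.9, GRCh38, chr19:3094362-3123999, plus strand), has 7 exons with 4190 bases. It had the fewest reads of the 4 genes, with 21 and 13 in the arginine-free libraries and 4 and 9 in the control libraries. The corresponding levels were 90.9 and 81.7 CPM in arginine-free medium, against 37.7 and 46.2 CPM in control medium. The groups did not overlap, and libraries of the same medium lay close together. With so few reads, this closeness says little about how well libraries repeat. The means were 86.3 ± 6.57 CPM in arginine-free medium and 41.9 ± 5.98 CPM in control medium (SD, n = 2 each). The log2 fold change of 1.00 (SE 0.47, 95% interval -0.01 to 2.02) did not pass (edgeR adjusted p = 0.118). The scaled ratio of 2.02 had an exact 95% counting interval from 1.04 to 4.17. That interval pools the reads of a group and leaves out the spread between libraries, and the interval of the log2 fold change includes no change. At these counts neither the presence nor the size of a difference is fixed. Its log2 fold change stayed between 0.90 and 1.21 over the alternatives that could be fitted, and passed in none of them.

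MKNK2, the eIF4E kinase gene (ENSG00000099875.16, GRCh38, chr19:2037465-2051244, minus strand), has 14 separate exon regions with 4076 bases in the table. MKNK2 makes splice forms with different ends, and the counts do not separate them. The row held 16 and 28 reads in the arginine-free libraries and 8 and 20 reads in the control libraries. In CPM these were 69.3 and 176 in arginine-free medium, against 75.4 and 103 in control medium. The arginine-free libraries lay on either side of both control libraries, so the groups overlapped. The means were 123 ± 75.4 CPM in arginine-free medium and 89.0 ± 19.2 CPM in control medium (SD, n = 2 each). The log2 fold change was 0.34 (SE 0.46, edgeR adjusted p = 0.611), and its 95% interval from -0.65 to 1.32 allows a change in either direction. Without arginine-free replicate 2 the sign turned, to -0.36 (edgeR adjusted p = 0.609). The change was 0.97 when arginine-free replicate 1 was left out (edgeR adjusted p = 0.0754).

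Of the 4 rows, 3 had groups that did not overlap, those of MAP2K2, GNA11 and GADD45B. That was so for 67.3% of all tested rows and for 60.7% of the tested rows in the window, so separation of 2 libraries from 2 was common in this table. For 1 value in groups of this size, the smallest p that an exact permutation test (two-sided) can reach is 0.333.

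The split of reads among the 4 genes differed between the media, a measure that depends on no scaling between libraries. The 4 rows together held 207 and 163 reads in the arginine-free libraries and 131 and 215 reads in the control libraries. MAP2K2 took 48.8% (95% Wilson interval 42.1 to 55.6) and 47.2% (39.7 to 54.9) of them in the arginine-free libraries. In the control libraries it took 81.7% (74.2 to 87.4) and 66.5% (60.0 to 72.5). The Wilson intervals of the arginine-free libraries lay under those of the control libraries, and the mean difference was -26.1 percentage points. The intervals of the control libraries did not overlap each other either, so separated intervals also occurred within control medium. Leaving out each library in turn gave differences from -33.7 to -18.5 percentage points. Intervals on reads cover counting error only, since amplified fragments without molecular identifiers are not independent molecules.

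Set against MAP2K2, the 3 other genes held more reads in arginine-free medium. For every 100 MAP2K2 reads there were 68.3 and 58.4 GADD45B reads in the arginine-free libraries, against 11.2 and 30.1 in the control libraries. For GNA11 the numbers were 20.8 and 16.9 in arginine-free medium and 3.74 and 6.29 in control medium. For MKNK2 they were 15.8 and 36.4 in arginine-free medium, against 7.48 and 14.0 in control medium. For MKNK2 the nearest libraries of the media, at 15.8 and 14.0, differed little, and its own CPM overlapped. How many of all tested rows would separate between the media when set against MAP2K2 was not counted. The 3 ratios share the fall of MAP2K2 and are no separate evidence for each gene, and whether the 4 fold changes differ from each other was not tested.

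**Figure D2:**
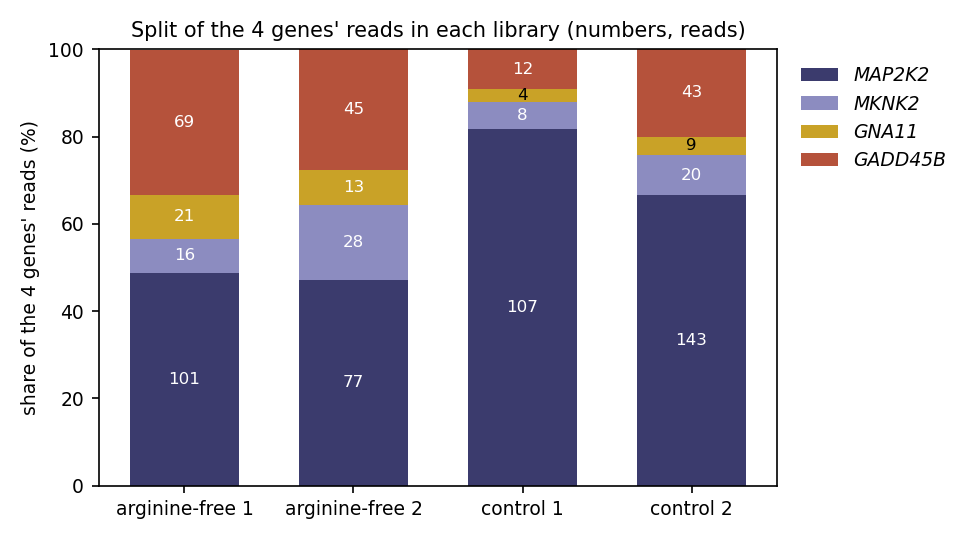
Share of the reads on the 4 genes that fell on each gene (vertical axis, percent) in each library, with read numbers inside the bars. MAP2K2 takes 48.8% and 47.2% in the arginine-free libraries and 81.7% and 66.5% in the control libraries, and of the other 3 genes GADD45B has the most reads in each library.

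Levels between genes were compared per kilobase of exon. In arginine-free medium the order was MAP2K2 at 267 ± 18.9 CPM per kb, GADD45B at 138 ± 5.44, MKNK2 at 30.1 ± 18.5 and GNA11 at 20.6 ± 1.57 (SD, n = 2 each). In control medium it was MAP2K2 at 504 ± 112.6 CPM per kb, GADD45B at 79.3 ± 36.1, MKNK2 at 21.8 ± 4.71 and GNA11 at 10.0 ± 1.43 (SD, n = 2 each). The order was the same in both media. MAP2K2 stood above GADD45B, and GADD45B above MKNK2, in every library. MKNK2 and GNA11 did not differ beyond their spread in arginine-free medium, where MKNK2 had 17.0 and 43.1 CPM per kb and GNA11 had 21.7 and 19.5. Among the 56 tested rows of the window, MAP2K2 ranked 14 by mean level per kb in arginine-free medium and 8 in control medium. GADD45B ranked 23 in arginine-free medium and 29 in control medium, MKNK2 41 and 48, and GNA11 46 and 55. The exon length includes untranslated parts, where few footprints lie, and its part in this order was not tested.

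The wider pathways could be followed only through these genes, because rows outside the window are not read as their genes. With rows outside the window, 5 were tested in each list of ERK cascade, G protein, and effector kinase and cap-binding factor genes. All 22 genes listed for the ERK cascade had a row, but MAP2K2 is the 1 that lies in the window, and 9 rows were at 0. MKNK2 was likewise the 1 window gene among 18 effector kinases and cap-binding factors, and GADD45B among 21 genes of GADD45 and stress kinase signalling. None of the 20 genes of ERK output and feedback lies in the window, and 16 of their rows were at 0. Of 41 G protein genes 5 lie in the window. GNA11 was the 1 tested, and the others held too few reads to test. GNG7, a G gamma subunit, had 6 and 2 reads in arginine-free medium and 4 and 7 in control medium. The thromboxane receptor TBXA2R had 1 and 0 reads in arginine-free medium and 1 and 3 in control medium. GNA15, a Gq class subunit made mainly in blood cells, and the lymphocyte receptor S1PR4 each had 1 read in all, in arginine-free medium.

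The closest relatives of the 4 genes gave no comparison. The rows of MAP2K1, MKNK1, GNAQ, GNA14 and GADD45G were at 0 in all 4 libraries, and GADD45A held 4 reads. All of these lie outside the window, so the zeros say nothing about whether the genes were translated. MEK1 and MEK2, and G alpha 11 and G alpha q, are alike in sequence. How the authors' alignment split short fragments between such copies was not tested.

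Among 40 genes in a list of mostly kinases and signalling genes of this region, 32 lie in the window and 18 were tested. Of these 1 rose, 4 fell and 13 did not pass, beside 19.6% higher and 17.9% lower over all tested rows of the window. With so few genes these counts do not set the list apart. Their median log2 fold change was -0.17, beside 0.18 over all 56 tested rows of the window and -0.03 over the table. The list also holds some genes of other function, such as the ribosomal protein gene RPS15, which had a log2 fold change of 0.42 (edgeR adjusted p = 0.225) and passed without arginine-free replicate 1, at 0.67 (edgeR adjusted p = 0.014). The 4 that fell were MAP2K2, STAP2, SPPL2B and TLE5. The adaptor gene STAP2 changed by -1.55 (SE 0.43), the intramembrane protease gene SPPL2B by -1.67 (SE 0.47) and the transcriptional corepressor gene TLE5 by -0.80 (SE 0.27). The 1 that rose was MIDN, a factor that brings proteins to the proteasome, at 0.77 (SE 0.22). None of these 5 calls held with DESeq2. Leaving out 1 library also ended each of them. For STAP2 this was arginine-free replicate 1 or control replicate 1, for SPPL2B arginine-free replicate 1, for MIDN control replicate 2, and for TLE5 any library but arginine-free replicate 2.

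The other kinase genes of the window did not pass. DAPK3, a death-associated kinase, had a log2 fold change of -0.26 (SE 0.33) on 40 and 27 reads in arginine-free medium and 28 and 32 in control medium. CSNK1G2, a casein kinase, had -0.74 (SE 0.45), and the lipid kinase PIP5K1C had -0.12 (SE 0.56). The remaining tested genes that did not pass were the small GTPase DIRAS1 at -0.22 (SE 0.53), the adaptor APBA3 at -0.40 (SE 0.46), the SUMO ligase PIAS4 at 0.23 (SE 0.38), the kinase co-activator MOB3A at -0.02 (SE 0.38), the endocytic protein SH3GL1 at 0.58 (SE 0.24) and the transcription factor TCF3 at -0.79 (SE 0.36). SH3GL1 passed without arginine-free replicate 1 (edgeR adjusted p = 0.044). TCF3 passed without arginine-free replicate 2, at -1.16 (edgeR adjusted p = 0.0449), and stood at -0.34 without arginine-free replicate 1. The sign of several of the smaller changes turned under an alternative.

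**Figure D3:**
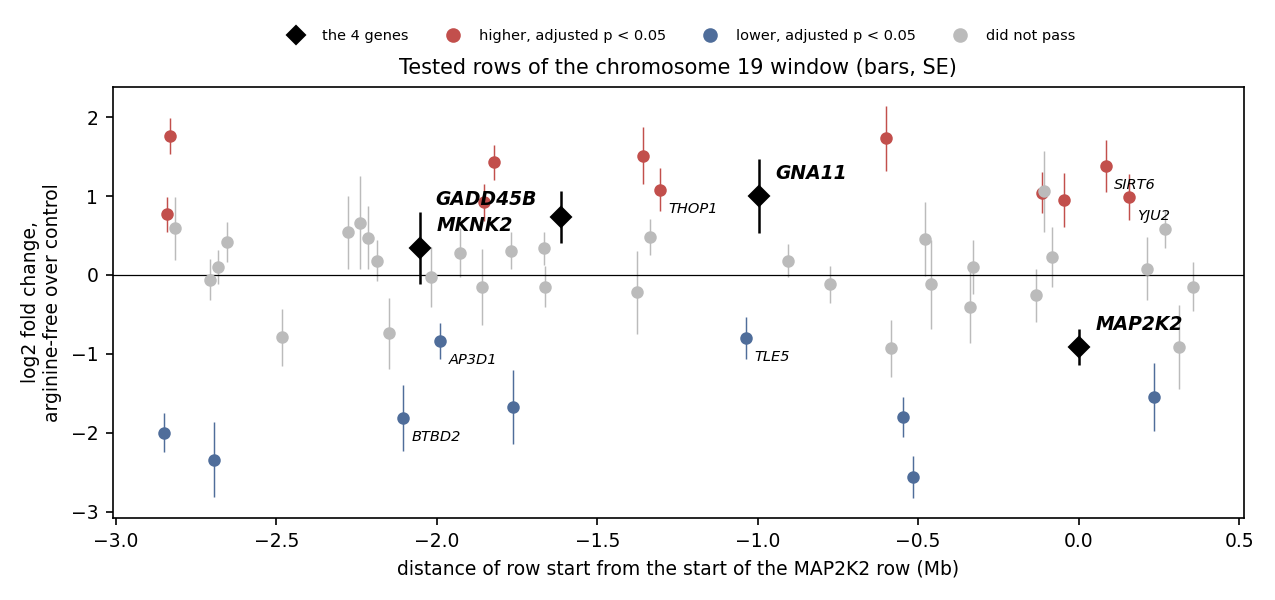
Log2 fold change, arginine-free over control, of the 56 tested rows of the chromosome 19 window (vertical axis, bars are SE) against the distance in Mb from the start of the MAP2K2 row. Black diamonds are the 4 genes, and calls in both directions lie along the whole window, with MAP2K2 at -0.91 beside higher rows and GNA11 at 1.00 beside the lower row of TLE5.

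Rows near the 4 genes passed in both directions. The nearest rows with at least 20 reads on either side of MAP2K2 were ZBTB7A, a transcription factor, and SIRT6, a chromatin deacylase, and both rose where MAP2K2 fell, with log2 fold changes of 0.95 (SE 0.34) and 1.38 (SE 0.33). The splicing factor YJU2, the next row beyond SIRT6, rose by 0.99 (SE 0.29). All 3 calls ended with DESeq2 and without control replicate 2, that of ZBTB7A also without arginine-free replicate 2, and that of YJU2 also without control replicate 1. TLE5, which fell, is the neighbour of GNA11 on one side, and NCLN, a membrane protein of the endoplasmic reticulum, stood at 0.18 (SE 0.21) on the other. Beyond these lay NFIC, a transcription factor, at -0.12 (SE 0.23), and ZNF77, a zinc finger gene too shallow to test (14 and 5 reads in arginine-free medium, 2 and 5 in control medium).

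BTBD2, the row before MKNK2, fell by 1.81 on the log2 scale (SE 0.42), a call that ended with DESeq2. AP3D1, a subunit of the adaptor complex that sorts cargo to melanosomes and lysosomes, lies second on the other side of MKNK2, after MOB3A, and changed by -0.84 (SE 0.23). Around GADD45B, the lamin gene LMNB2 had -0.15 (SE 0.26), the mitochondrial import factor TIMM13 had 0.34 (SE 0.21), and the zinc carrier SLC39A3 rose by 1.51 (SE 0.36). The SLC39A3 call ended with DESeq2 and without control replicate 2. The AP3D1 call ended with DESeq2, without arginine-free replicate 1 and without control replicate 1. The rows directly before and after each of the 4 genes, all unnamed or non-coding, held no read. Reads were counted without strand, and the 2 unnamed minus-strand rows that lie inside the GNA11 row also held no read. How reads on bases shared between rows were assigned was not checked, so these zeros do not show whether the GNA11 count was affected.

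Likeness between rows was measured as the Euclidean distance between log2 CPM profiles over the 4 libraries, each centred on its own mean, among protein-coding rows of the window. It is a description over 4 libraries. MAP2K2 was nearest to AP3D1 (distance 0.29) and TLE5 (0.33), and the median distance to the 52 other rows was 1.15. AP3D1 had 138 and 130 reads in arginine-free medium and 142 and 231 in control medium. GNA11 was nearest to YJU2 (0.19) and to THOP1 (0.34), a peptidase that degrades short peptides. THOP1 held 94 and 75 reads in arginine-free medium and 22 and 40 in control medium. Its log2 fold change of 1.08 (SE 0.27) passed, a call that ended with DESeq2 and without control replicate 2. YJU2 had 75 and 55 reads in arginine-free medium and 16 and 35 in control medium. YJU2 and THOP1 both passed, and both hold more reads than GNA11. Their fitted changes were close to that of GNA11, but they were picked for their likeness to it over these same libraries. They are therefore no separate evidence for a change of GNA11.

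GADD45B was nearest to CACTIN (0.38), a splicing-associated protein, and to PIAS4 (0.46), which did not pass either. CACTIN had a log2 fold change of 0.46 (SE 0.47). MKNK2 was nearest to LSM7 (0.48), a protein of RNA processing complexes, and FSD1 (0.50), a microtubule-associated protein, with log2 fold changes of 0.31 (SE 0.24) and 0.08 (SE 0.40). LSM7 passed without arginine-free replicate 1, at 0.64 (edgeR adjusted p = 0.0259). Among the 4 genes themselves GNA11 and GADD45B had the most alike profiles (0.48), and MAP2K2 was furthest from GADD45B (1.97).

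**Figure D4:**
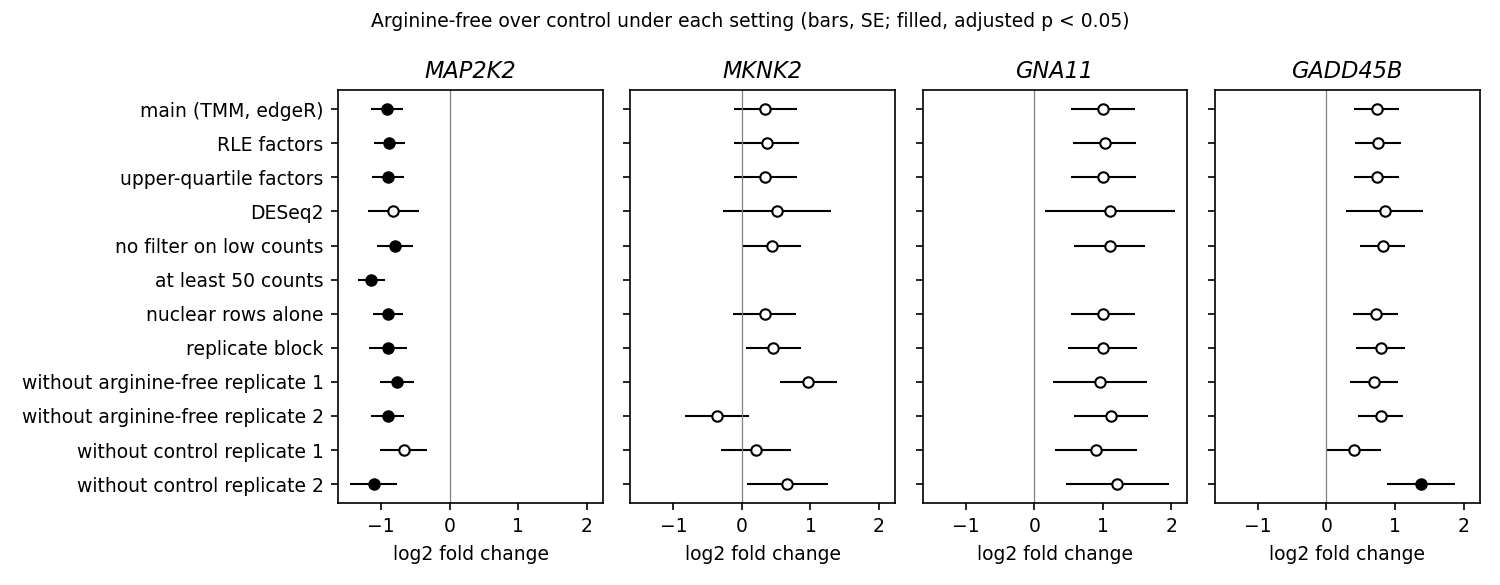
Log2 fold change, arginine-free over control (horizontal axis, bars are SE), of each gene under the main test and each alternative (rows), with filled points for an adjusted p under 0.05. MAP2K2 lies below 0 in every row and loses its fill with DESeq2 and without control replicate 1. GADD45B is filled only without control replicate 2, and MKNK2 crosses 0 without arginine-free replicate 2.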

How the data were processed

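Footprints of A375 cells were measured in 2 arginine-free and 2 control libraries, grouped by sample title. Per the file headers, the authors counted reads over GENCODE 47 exons with featureCounts 2.0.1, ignoring strand, and deposited these raw counts. Tools in the submitters' processing notes are cutadapt, Bowtie2 2.5.2 and TopHat2, with GRCh37 and hg19 as builds. A paired-read option appears in the header, while the labels describe single reads.

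Identifiers came without symbols and were named by place against RefSeq genes of GRCh38.p14, as mutual best matches whose overlap over union was 0.5 (1 end shared) or 0.75 and above. This named 38563 of 78724 rows. MAP2K2, MKNK2 and GNA11 overlapped RefSeq by 100% after rounding, and GADD45B by 79.5% with a shared start. Counts were tested with edgeR's quasi-likelihood test (edgeR 4.0.16, R 4.3.3) after filterByExpr and TMM. CPM are counts scaled by the tested total of a library and its TMM factor. SE was derived from the log2 fold change and its F statistic. The alternatives were DESeq2 1.42.0, RLE and upper-quartile factors, 2 other filters, nuclear rows alone, a replicate block and each library left out. Intervals are 95% Wilson or exact (SciPy 1.17.1). The test was also tried on counts simulated from the fitted means, with a common spread for all rows. It called 36% of 100 rows changed 2-fold, 76% of 100 rows changed 4-fold and 0.172% of unchanged rows. In the simulation 2326 of 2526 rows were unchanged. In the data 16.0% of tested rows were called higher and 16.9% lower, so the simulated rates need not carry over.

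The members and gene lists were chosen with earlier results of these data known. Named genes are the 4 members, their paralogs, the tested list members of the window, the 2 rows on either side of each member and the 2 rows of most alike profile. The neighbours given are those with at least 20 reads. Among arginine-free and among control libraries, counts differed by 8.24 and 4.3 times the sampling noise (chi-square per degree of freedom), so no library was a copy of another. Protein sequences were not used here.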

Additional observations from a re-analysis of the deposited data

How the results depend on the processing

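The direction was the same under every alternative that could be fitted for MAP2K2, GNA11 and GADD45B. The cause of each change below was not tested. The MAP2K2 call ended with DESeq2 (-0.82) and without control replicate 1, and leaving out each library gave -1.11 to -0.67. GADD45B passed without control replicate 2, and leaving out each library gave 0.40 to 1.38, while GNA11 ran from 0.90 to 1.21. MKNK2 ran from -0.36 to 0.97 and turned sign without arginine-free replicate 2 (-0.36). MKNK2, GNA11 and GADD45B were left out by construction where a row needed at least 50 counts throughout 1 group. Rows higher and lower in the table numbered 405 and 428, 162 and 147 with DESeq2 (on 9443 rows), and 138 and 146 with at least 50 counts (on 580 rows). Leaving out a library gave 270 to 418 higher and 243 to 389 lower, with 243 lower without control replicate 2. In the window there were 11 higher and 10 lower. DESeq2 gave 4 and 3, and at least 50 counts gave 5 lower (on 25 rows of the window). Leaving out a library gave 4 to 16 higher and 6 to 11 lower, with 4 higher without control replicate 2 and 6 lower without control replicate 1.

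The labels do not say that a replicate number marks a shared culture, and same-numbered libraries did not deviate together (correlation -0.0528 over tested rows). With the replicate block MAP2K2 had -0.90 (edgeR adjusted p = 0.0263), MKNK2 0.46, GNA11 1.00 and GADD45B 0.79, and the table had 354 higher and 372 lower rows. The calls of TLE5 and ZBTB7A ended under it.

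For 28 other named rows of the window, run after seeing the data, 243 of 291 values kept their direction and side of the threshold, 30 no longer passed, 4 newly passed and 14 turned sign, none of these 14 past the threshold. The 4 were LSM7, RPS15 and SH3GL1 without arginine-free replicate 1 and TCF3 without arginine-free replicate 2. Without control replicate 1 the sign turned for APBA3, DAPK3, LMNB2 and PIAS4, without arginine-free replicate 2 for DIRAS1, FSD1, MOB3A and PIP5K1C, and without arginine-free replicate 1 for LMNB2 and NFIC. Over the libraries left out, the log2 fold change ran from -0.85 to 0.00 for APBA3, -0.60 to 0.07 for DAPK3, -0.50 to 0.01 for DIRAS1, -0.25 to 0.50 for FSD1, -0.38 to 0.11 for LMNB2, -0.29 to 0.24 for MOB3A, -0.18 to 0.05 for NFIC, -0.08 to 0.94 for PIAS4 and -1.19 to 0.43 for PIP5K1C. MOB3A was at 0.00 with RLE factors, 0.04 with DESeq2 and 0.07 without a filter, and NCLN at -0.05 with at least 50 counts.

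Depth limits what MKNK2 and GNA11 can show, with 72 and 47 reads in all.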
